A study of Danio rerio with 25 samples.

Results

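The microRNA hairpins numbered miR-15, miR-16 and miR-457 were followed in the skin of male zebrafish (Danio rerio) over 5 ages. All hairpins with these numbers were taken, whatever their letter or copy, which gave 9 of the 346 hairpins in the count table: miR-15a-1, miR-15a-2, miR-15b, miR-15c, miR-16a, miR-16b, miR-16c, miR-457a and miR-457b. Skin small RNA was sequenced from 5 libraries at each of 6, 12, 24, 36 and 42 months. Fish of 6 and 24 months carried the strain label AB JxTü with no transgene. Fish of 12 months had the same background with Tg(flk:mCherry), a reporter driven by a vascular endothelial promoter. Fish of 36 months carried Tg(pu.1:GFP), driven by a myeloid promoter, and fish of 42 months Tg(wt1a:GFP), driven by a promoter known from the kidney. Age and transgene therefore cannot be told apart in any pair of ages except 24 against 6 months, which is described first. The labels do not say in words that the 25 libraries come from separate fish, so p-values measure the spread between libraries, which may in part be technical.

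MicroRNAs bind messenger RNAs through a short seed near their 5′ end and lower the output of those messages. The miR-15 and miR-16 microRNAs share a seed, and the fish microRNA miR-457 carries it too. In mammalian cells this family slows the cell cycle and favours cell death, through targets such as the cyclins D1 and E1, the checkpoint kinase CHEK1 and the survival protein BCL2. In human chronic lymphocytic leukaemia the locus of MIR15A and MIR16-1 is often deleted. Skin epidermis renews itself by constant division of its basal cells, and skin also holds vessels, nerves, blood and pigment cells.

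The members lie in pairs. All 9 matched an entry of the RefSeq gene table for the assembly GRCz12tu, which placed them at 5 loci, of which 4 held a pair of members with no other gene listed between them. MiR-15a-1 stood next to miR-16b, miR-15a-2 next to miR-16c, miR-15c next to miR-16a, and miR-15b next to miR-457a, while miR-457b had no member beside it. The pair miR-15c and miR-16a lies within the spans of 2 genes, kpna4 and smc4. Of these smc4, a condensin gene, also hosts a pair of this family in mammals. MiR-15a-2 with miR-16c lies within the spans of trim13 and of a long noncoding RNA gene. No coordinates are printed, since the build behind these counts was not given in the sources used here.

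Each hairpin's reads were counted, and levels are given as CPM, the counts scaled to a common library total after TMM adjustment for composition, with no correction for length or for how well a sequence is captured. Library totals ran from 683884 to 5206505 hairpin counts, and a member had between 25 and 8700 counts in a library. Epidermal microRNAs were plentiful in the libraries: the 9 hairpins of miR-203, miR-205, miR-200, miR-141 and miR-429 summed to 54760 to 208207 CPM, and none of them was at 0 throughout. The 9 members together took 0.318% to 0.495% of all counts of a library, so they are microRNAs of middling abundance in this tissue. MiR-16c led with 1394 ± 222.2 CPM (SD, n = 25 libraries), followed by miR-16b with 1009 ± 166 and miR-15b with 739 ± 151 CPM. These 3 hairpins ranked 77, 89 and 94 among the 346 by mean CPM. The other members averaged between 63.3 CPM (miR-457b) and 229.6 CPM (miR-457a). Summed by number, miR-16 held 62.6% of the members' counts, miR-15 30.1% and miR-457 7.30%. The copies miR-15a-1 and miR-15a-2 carry the same name and may share reads. Copy 1 had between 1.03 and 1.41 times the count of copy 2, with a median of 1.27 over the 25 libraries. How many reads they share is not known, so they cannot be taken as independent measurements.

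**Figure D1:**
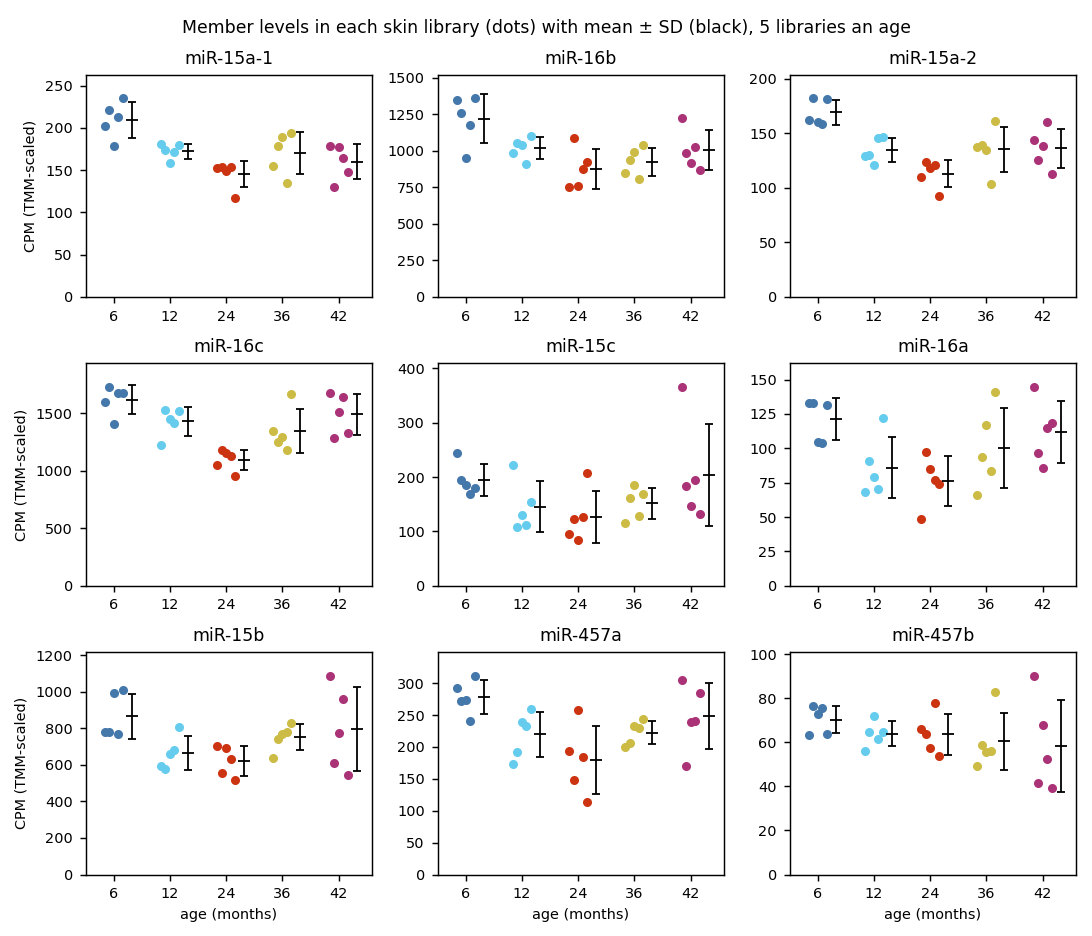
CPM of each of the 9 hairpins (vertical axes, linear, from 0) in each library at 6, 12, 24, 36 and 42 months; dots are libraries and the black mark with bars is the mean ± SD of 5 libraries. In 8 of the 9 panels the highest mean is at 6 months, and in 8 the lowest is at 24 months. The same order was not counted over all hairpins.

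The shape over age was shared by most members. The mean was highest at 6 months for 8 of the 9 members (miR-15c was highest at 42 months) and lowest at 24 months for 8 of the 9 (miR-457b was lowest at 42 months). How many of all hairpins had this order was not counted. Copies and genomic neighbours among the members are not independent, so 8 of 9 is a description. The highest mean was between 1.21 times (miR-457b) and 1.61 times (miR-15c) the lowest. When the 5 ages of a member were ordered by their means, none of the 36 pairs of neighbouring ages passed the pairwise edgeR test, so only ages farther apart in the order were separated. For any difference among the ages, 4 of 9 members passed at an adjusted p under 0.05 (edgeR quasi-likelihood test, Benjamini-Hochberg over all 258 hairpins tested), against 38.4% of all hairpins tested. These were miR-16c (adjusted p = 0.00346), miR-15a-2 (0.0115), miR-15a-1 (0.0144) and miR-16b (0.0267). The share is close to the background of the table. MiR-16c and miR-15a-2 passed this test without each library in turn, and miR-15a-1 missed it without 6 months replicate 5 (adjusted p = 0.0522). MiR-16b missed it without each of 13 libraries, namely 6 months replicates 1, 2 and 5, 12 months replicates 1 and 3, 24 months replicates 1 and 5, 36 months replicates 3 and 4, and 42 months replicates 1, 2, 3 and 5 (adjusted p-values of 0.0543 to 0.127). Calls were also lost for miR-16b with DESeq2 size factors (0.0753), copies summed (0.174) or upper-quartile scaling (0.0706), for miR-15a-1 with upper-quartile scaling (0.0821) and for miR-15a-2 with library size alone (0.0737). MiR-457a (adjusted p = 0.0535), miR-16a (0.0636), miR-15b (0.0818), miR-15c (0.133) and miR-457b (0.724) did not pass. DESeq2 and limma-voom called 6 members each. Without 6 months replicate 5 the count was 2, and without 12 months replicate 5 it was 7.

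At 24 months, 7 of the 9 members were lower than at 6 months in fish with the same strain label, with changes of -27.9% to -37.1% (edgeR, adjusted p under 0.05). Of all hairpins tested, 16.3% were called lower in this comparison. All 9 log2 changes were negative, with a median of -0.56, where the median over the 258 hairpins tested was 0.05. Ordered from the most lowered hairpin upwards, 8 of the 9 members stood between places 26 and 48 of 258, and miR-457b stood at place 101. The CPM ranges of the 24-month and 6-month libraries did not overlap for 5 members, all lower at 24 months, against 12.0% of the hairpins tested. In bulk skin, fewer cells that carry a microRNA and less of it per cell cannot be told apart.

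Among the miR-16 hairpins, miR-16c showed the clearest separation. It was at 1053, 1177, 1151, 1126 and 956 CPM in the 24-month libraries, against 1599, 1726, 1407, 1671 and 1675 CPM in the 6-month libraries. Every 24-month library was below every 6-month library. The log2 change was -0.56 ± 0.11 (SE, edgeR adjusted p = 0.00105), and it passed in each of the 34 alternative settings tried, with 0.0136 as the highest adjusted p. MiR-16b was at 751, 1086, 760, 874 and 923 CPM at 24 months, against 1350, 1257, 951, 1178 and 1360 CPM at 6 months. The ranges overlapped, because 24 months replicate 2 was above 6 months replicate 3. The change was -0.47 ± 0.12 (adjusted p = 0.00753), and it missed the threshold in 5 of 34 settings, among them the fit of these 2 ages alone (-0.37, adjusted p = 0.1004) and the fits without 24 months replicate 1 (adjusted p = 0.0733) or 6 months replicate 1 (0.0506). The smallest of the miR-16 hairpins, miR-16a, was at 48.6, 97.4, 84.8, 77.0 and 73.7 CPM at 24 months, against 132.997, 132.9, 104.8, 104.1 and 131.8 CPM at 6 months, with no overlap. It fell by 0.67 ± 0.21 on the log2 scale (adjusted p = 0.0229), and it was not called without 24 months replicate 1 (-0.48, adjusted p = 0.121), 24 months replicate 5 (adjusted p = 0.065), 6 months replicate 1 (0.0668) or 6 months replicate 5 (0.0547).

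Among the miR-15 hairpins, both copies of miR-15a and miR-15b were called lower. MiR-15a-1 was at 152, 153.4, 149, 153.5 and 118 CPM at 24 months, against 202, 220.7, 178, 212 and 235 CPM at 6 months. The 24-month values lay close together except for replicate 5, which was lower. The change was -0.53 ± 0.12 (SE, edgeR adjusted p = 0.00263), and was not called under upper-quartile scaling (-0.40, adjusted p = 0.061). Its copy miR-15a-2 had 110.2, 123.99, 118, 121 and 92.7 CPM at 24 months, against 162.5, 182, 161, 159 and 181 CPM at 6 months, again with no overlap. It fell by 0.58 ± 0.12 (adjusted p = 0.00154) and passed in each of its 33 alternative settings. MiR-15b, the most abundant miR-15 hairpin, was at 703, 554, 690.1, 633 and 519 CPM at 24 months, against 779.1, 779.5, 992, 768.5 and 1010 CPM at 6 months. The ranges were separate, with 703 CPM as the highest at 24 months and 768.5 CPM as the lowest at 6 months. The change was -0.48 ± 0.16 (adjusted p = 0.0277), the weakest of the 7 calls, and it was lost in 7 of 34 settings, without 6 months replicate 3 or 5, 12 months replicate 3, or 24 months replicate 2 or 5, and under upper-quartile or library-size scaling, with adjusted p-values of 0.0528 to 0.141.

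MiR-15c was not called lower, although its estimated fall was the largest among the miR-15 hairpins. It had 96.0, 123, 84.8, 125.7 and 207 CPM at 24 months, against 244, 194.6, 185, 169.5 and 179 CPM at 6 months. Replicate 5 at 24 months, which held the lowest miR-15a and miR-15b levels of its age, held the highest miR-15c. The change was -0.61 ± 0.26 and did not pass (adjusted p = 0.0947), with a 95% interval from -1.13 to -0.09. This interval holds the changes of the other miR-15 hairpins, and a difference from them was not tested. Without 24 months replicate 5 the change was -0.79 and passed (adjusted p = 0.0186).

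Of the miR-457 hairpins, miR-457a was called lower and miR-457b was not. MiR-457a was at 194, 148, 258, 185 and 114 CPM at 24 months, against 293, 272, 273, 241 and 311 CPM at 6 months. The ranges overlapped through 24 months replicate 3. It fell by 0.63 ± 0.18 on the log2 scale (SE, edgeR adjusted p = 0.0107), a call lost with library size alone (-0.52, adjusted p = 0.0568). MiR-457b had 65.8, 63.6, 57.2, 77.8 and 53.6 CPM at 24 months, against 63.5, 76.3, 72.6, 75.5 and 63.7 CPM at 6 months. The libraries of both ages were mixed, and its change of -0.14 ± 0.19 did not pass (adjusted p = 0.648), with a 95% interval from -0.52 to 0.23. The interval holds the changes of miR-16b and miR-15b. It was built with a normal quantile, and the changes of the other members carry errors of their own. It is therefore no test of a difference between miR-457b and the other members. The ratio of miR-457b to miR-457a was 0.376 ± 0.0982 at 24 months and 0.256 ± 0.0451 at 6 months (SD, n = 5 each). That difference, 0.53 on the log2 scale, had a two-sided exact permutation p of 0.0476, which was 0.381 after adjustment over 8 ratios. The smallest p that this test can give with 5 against 5 libraries is 0.00794. With that floor 1 ratio alone could not pass after adjustment, so the adjusted test cannot decide here. A difference between them was not shown.

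**Figure D2:**
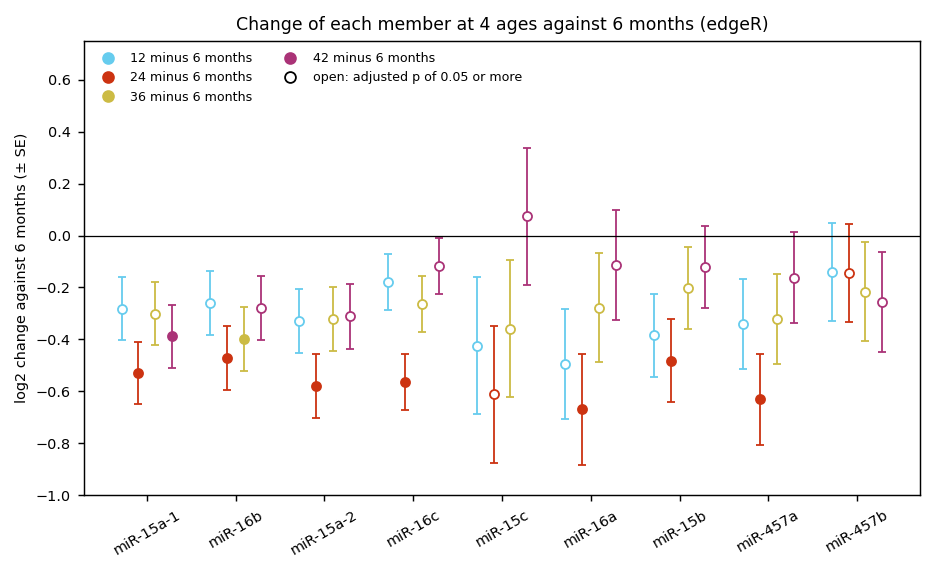
Log2 change of each member at 12, 24, 36 and 42 months against 6 months (vertical axis, points with bars of ± SE, edgeR), with neighbours in the genome side by side; filled points passed an adjusted p of 0.05. The 24-month points are filled for 7 of 9 members, and 1 point each is filled at 36 months (miR-16b) and 42 months (miR-15a-1).

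Summed by number, all 3 sums were lower at 24 than at 6 months (17.7% of all numbers tested were called lower). The miR-16 sum was at 2047 ± 193 CPM at 24 months and 2956 ± 287 CPM at 6 months (SD, n = 5 each), a log2 change of -0.53 ± 0.11 (SE, edgeR adjusted p = 0.0018). The miR-15 sum was at 1005 ± 56.3 CPM at 24 months and 1439 ± 119 CPM at 6 months (-0.52 ± 0.13, adjusted p = 0.00539). The miR-457 sum was at 243 ± 55.8 CPM at 24 months and 348 ± 21.1 CPM at 6 months (-0.52 ± 0.17, adjusted p = 0.0218). Under upper-quartile scaling the changes of the miR-16, miR-15 and miR-457 sums were -0.21, -0.20 and -0.21, and none was called. The call of the miR-457 sum was also lost with library size alone (-0.41, adjusted p = 0.0949) and without each of 7 libraries in turn, namely 24 months replicates 2 and 5, 6 months replicates 3 and 5, 36 months replicates 3 and 5, and 42 months replicate 5 (adjusted p-values of 0.057 to 0.1004). That of the miR-15 sum was lost without 6 months replicate 3 (-0.34, adjusted p = 0.0767). For any difference among ages the miR-15 and miR-16 sums passed (adjusted p = 0.0246 and 0.0111) and the miR-457 sum did not (0.117), where 41.9% of all numbers passed. Of these calls, that of the miR-15 sum was lost without 6 months replicates 2, 3 or 5 or 36 months replicates 3 or 5 (adjusted p-values of 0.0513 to 0.129). That of the miR-16 sum was lost without 6 months replicate 3, 36 months replicates 3 or 5, or 42 months replicate 5 (0.0524 to 0.092).

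**Figure D3:**
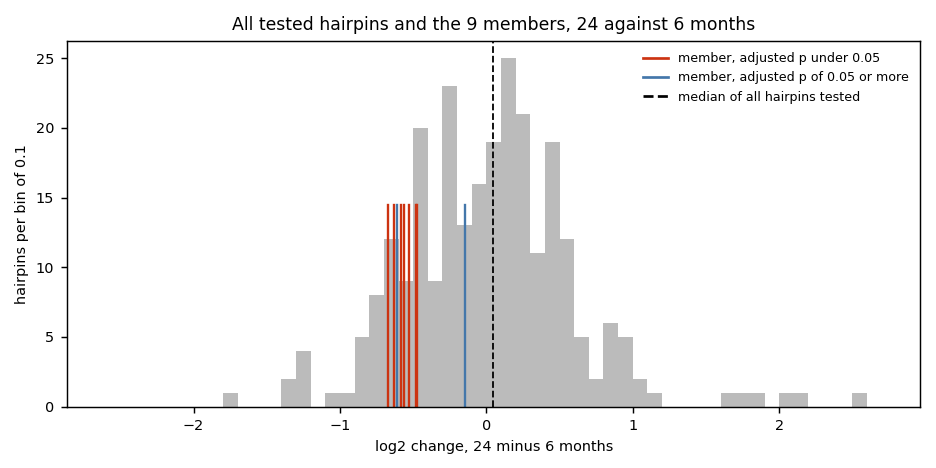
Distribution of the log2 change at 24 against 6 months for the 258 hairpins tested (grey bars, number of hairpins per bin of 0.1), with the 9 members as vertical lines (red: adjusted p under 0.05, blue: not) and the median of all hairpins dashed. Of the members 8 lie between -0.67 and -0.47, left of the median of 0.05, and miR-457b lies at -0.14.

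The share of all counts shows the difference without TMM factors. Such a share is itself a scaling by the library total, like the setting of library size alone below. The 9 members together took 0.341%, 0.326%, 0.356%, 0.358% and 0.322% of the counts of the 24-month libraries, against 0.428%, 0.441%, 0.472%, 0.453% and 0.495% in the 6-month libraries. The highest 24-month share was below the lowest 6-month share. The size of the change depends on the scaling: the members' median log2 change was -0.56 with TMM factors, -0.49 with DESeq2 size factors, -0.46 with library size alone and -0.45 with upper-quartile scaling. The median of all 258 hairpins moved with it, from 0.05 with TMM factors to 0.18 with upper-quartile scaling, and the members' median stayed 0.61 to 0.62 below that of all hairpins. A scaling factor moves all hairpins of a library alike, so this steady gap follows from the method and is no test of the change. Over the whole table TMM gave 23 higher and 42 lower calls, DESeq2 size factors 33 and 36, library size alone 26 and 32, and upper-quartile scaling 26 and 25. The number of members called lower was 7 with TMM and with DESeq2 size factors, 5 with library size alone and 4 with upper-quartile scaling. With the copies of each name summed before the fit, the miR-15a copies counted as 1 name and 4 of 8 names were lower: miR-15a (-0.44), miR-15b (-0.38), miR-16c (-0.45) and miR-457a (-0.54). Of all 190 names tested, 23 were lower in that fit.

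**Figure D4:**
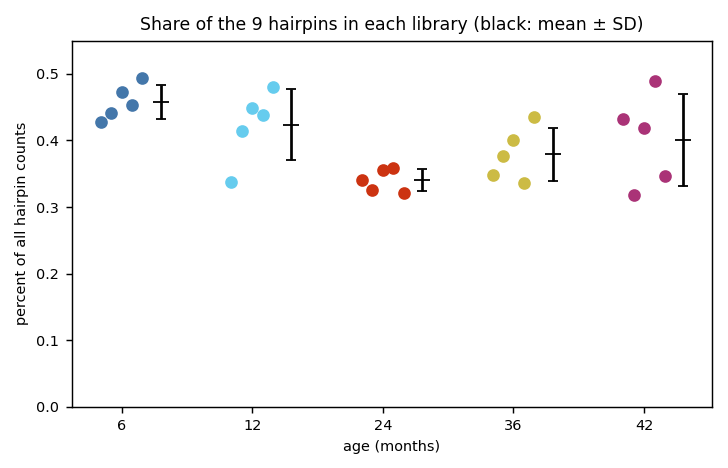
Percent of all hairpin counts of a library taken by the 9 members (vertical axis, linear, from 0) at each age; dots are libraries and the black mark with bars is the mean ± SD of 5 libraries. The 24-month dots, 0.322% to 0.358%, all lie below the 6-month dots, 0.428% to 0.495%.

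Some markers of the epidermis also moved between these ages. Of the 9 epidermal hairpins 6 were called lower at 24 months and 0 higher, where 16.3% of all hairpins were called lower. The 6 were miR-200a, miR-200b, miR-200c, miR-141, miR-429a and miR-203b. MiR-205 (-0.14, edgeR adjusted p = 0.806), miR-203a (-0.32, 0.269) and miR-429b (-0.32, 0.335) were not called. The sum of the 9 ran from 54760 to 127107 CPM at 24 months and from 83639 to 122131 CPM at 6 months. None of the 8 muscle, 2 erythroid, 4 leukocyte, 2 endothelial or 15 neural hairpins was called in either direction. The liver microRNA miR-122 was called higher, with 138 to 1826 CPM at 24 months and 50.9 to 214 CPM at 6 months, and so was 1 of 2 pigment cell hairpins, whose sum was 31183 to 45154 CPM at 24 months and 24497 to 42005 CPM at 6 months. Of all 258 hairpins tested, 23 were called higher in this comparison. The part of these markers in the members' change was not tested.

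At 36 and 42 months most mean levels lay between those of 24 and 6 months, except that miR-457b was lower than at either and miR-15c at 42 months was higher than at either. At 36 months 1 of 9 members was called lower than at 6 months (14.3% of all hairpins were), with all 9 changes negative and a median of -0.30 (-0.05 over all hairpins). This was miR-16b, at 850, 935, 993, 811 and 1041 CPM at 36 months against 951 to 1360 CPM at 6 months (change -0.40 ± 0.12, SE, edgeR adjusted p = 0.0178). The ranges overlapped. The call was lost with copies summed (-0.31, adjusted p = 0.114) and without each of 6 libraries in turn (6 months replicates 1 and 5, 12 months replicates 1 and 3, 36 months replicates 1 and 4), with adjusted p-values of 0.0501 to 0.0662. DESeq2 called 4 members in this pair and limma-voom 3. How many of all hairpins these tools called in this pair was not counted. At 42 months 1 of 9 members was lower than at 6 months (12.4% of all hairpins were), namely miR-15a-1, at 179, 130.1, 177, 165 and 148 CPM at 42 months against 178 to 235 CPM at 6 months. Its change was -0.39 ± 0.12 (adjusted p = 0.0191), and was not called in the fit of these 2 ages alone (-0.29, adjusted p = 0.135) or without 6 months replicate 5, 12 months replicate 1 or 12 months replicate 3 (adjusted p-values of 0.0564 to 0.0614). The median change of the 9 members at 42 months was -0.16 (0.002 over all hairpins), and miR-15c was the member with a positive one (0.07). Age and transgene are confounded in both comparisons.

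Against 24 months, miR-16c was higher again at 42 months. It was at 1678, 1286, 1513, 1641 and 1331 CPM at 42 months, against 956 to 1177 CPM at 24 months, with no overlap (2 of the 258 hairpins tested lay higher so). The change was 0.45 ± 0.11 (SE, edgeR adjusted p = 0.0133), and miR-16c was the 1 member of 9 that passed, against 3.49% of all hairpins called higher. Of the 9 changes 8 were positive, with a median of 0.36, where that of all hairpins was 0.04, and 6 had an unadjusted p under 0.05. How many of all hairpins were positive or had such a p was not counted. The call did not hold with upper-quartile scaling (0.25, adjusted p = 0.137), library size alone (0.34, 0.121) or in the fit of these 2 ages alone (0.48, 0.125), and it was lost without each of 9 libraries in turn: 42 months replicates 1, 3 and 5, 24 months replicates 1 and 5, 36 months replicates 3 and 4, and 6 months replicates 1 and 3 (adjusted p-values of 0.0523 to 0.126). At 36 against 24 months miR-16c also lay higher with no overlap, at 1181 to 1666 CPM at 36 months against 956 to 1177 CPM at 24 months (20 of the 258 hairpins tested lay higher so). Its change of 0.30 ± 0.11 did not pass (edgeR adjusted p = 0.0726).

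In the other 6 pairs edgeR called 0 of 9 members. At 12 against 6 months (3.88% of all hairpins called) all 9 changes were negative, with a median of -0.33, where that of all hairpins was -0.03. Of the members 5 had an unadjusted p under 0.05, and DESeq2 called 1 and limma-voom 0. At 24 against 12 months (0% of all hairpins called) 1 member, miR-16c, had an unadjusted p under 0.05, with a change of -0.39 ± 0.11. At 36 against 24 months (5.04%) 2 members had one, and at 36 against 12 (10.9%), 42 against 12 (8.91%) and 42 against 36 months (3.88%) 0 members had one. DESeq2 and limma-voom called 0 members in each of these 5 pairs. In none of the 6 pairs was it counted how many of all hairpins had an unadjusted p under 0.05. At 24 against 12 months miR-15a-1 and miR-16c lay lower with no overlap of the CPM ranges (14 of the 258 hairpins tested lay lower so). At 12 against 6 months miR-15a-2 lay lower with no overlap (17 of 258). The comparisons of these 6 pairs share libraries with each other and with the pairs above.

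No member passed the test for a linear trend over age. The count was 0 of 9 members with edgeR (25.2% of all hairpins passed), also with DESeq2 and with limma-voom, and 2 had an unadjusted p under 0.05. These were miR-15a-1 with a slope of -0.09 ± 0.04 log2 per 12 months (SE, edgeR adjusted p = 0.0783) and miR-16b with -0.09 ± 0.04 (0.0937). The slopes of the other members ran from -0.07 (miR-15a-2) to 0.03 (miR-15c). Upper-quartile scaling called miR-15a-1, miR-15a-2 and miR-16b lower (slopes of -0.13, -0.11 and -0.13), and library size alone called miR-15a-1 and miR-16b. Under these scalings 44 and 46 of all 258 hairpins fell in the trend. Leaving out the 42-month group called miR-16b (-0.14, adjusted p = 0.0399), where 29 of 260 hairpins fell. Of the sums by number none of 3 passed, where 27.4% of the numbers did.

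Ratios between members need no library scaling, and no change with age passed the test. None of 8 ratios passed the permutation test among ages (Kruskal-Wallis statistic with 100000 resamples, Benjamini-Hochberg over the 8), and none had an unadjusted p under 0.05. The count of miR-16 was 2.046 ± 0.271 times that of miR-15 at 24 months and 2.07 ± 0.275 times at 6 months (SD, n = 5 each), and over the 5 ages the mean ratio stayed between 1.96 and 2.29 (adjusted p = 0.567). The ratio of miR-457 to miR-15 was 0.2405 ± 0.0451 at 24 months and 0.243 ± 0.0123 at 6 months (adjusted p = 0.642). The smallest p was that of miR-16a over miR-16b (0.0506, adjusted p = 0.362), with mean ratios of 0.0999, 0.0837, 0.0868, 0.107 and 0.111 from 6 to 42 months. For miR-457b over miR-457a the p was 0.0904 (adjusted p = 0.362). These tests do not show that the ratios are equal.

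Levels of genomic neighbours were correlated over the 25 libraries of all ages, and so were those of several members that are not neighbours. The permutations shuffled libraries across ages, so the p-values also take in differences between ages that 2 members share. No p-value was computed for r with age means removed. Over 25 libraries, miR-15a-2 and its neighbour miR-16c had a Pearson r of 0.857 in log2 CPM and a Spearman rho of 0.835 (permutation p = 1e-05 for both, the smallest that 100000 resamples can give; adjusted p = 0.00012 and 0.00018 over 36 pairs). The r was 0.757 after each age's mean was removed, and 0.81 without the 2 libraries farthest from the median of miR-15a-2. With age means removed, miR-15a-2 was the closest of 257 possible partners of miR-16c, and miR-16c stood at place 2 for miR-15a-2. Other neighbours stood farther down each other's lists. The places were 8 and 12 for miR-15b and miR-457a, 18 and 35 for miR-15a-1 and miR-16b, and 59 and 34 for miR-15c and miR-16a. MiR-15b and miR-457a had an r of 0.725 (rho 0.723, adjusted p = 0.000216 and 0.00036), which was 0.583 with age means removed and 0.645 without the 2 farthest libraries. MiR-15a-1 and miR-16b had an r of 0.699 (rho 0.714, adjusted p = 0.000324 and 0.000495), which was 0.442 with age means removed and 0.684 without the 2 farthest libraries. The pair within the spans of kpna4 and smc4, miR-15c and miR-16a, had the lowest r of the 4, 0.588 (rho 0.537, adjusted p = 0.00418 and 0.0113). It was 0.362 with age means removed and 0.547 without the 2 farthest libraries.

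The 32 pairs that are not neighbours had a median r of 0.549, from 0.193 to 0.881, and a median of 0.40 with age means removed. Pairs at different loci reached values as high as those of neighbours: miR-15a-1 and miR-15a-2, copies of 1 name, had an r of 0.881, and miR-16a and miR-16b, had 0.729, and 0.698 with age means removed. Pairs with the same number may share reads. Of pairs with different numbers, miR-15a-1 and miR-16c had an r of 0.768, and 0.683 with age means removed. MiR-15a-1 may however share reads with miR-15a-2, the neighbour of miR-16c. MiR-15b and miR-457b had 0.494, and 0.621 with age means removed. The members' median r with all other tested hairpins was 0.01. All pairs share library, scaling and depth, and these pairs were chosen after the values were seen. The age-centred r of miR-15c varied widely by partner, from 0.596 with miR-16b and 0.362 with miR-16a to -0.02 with miR-16c and -0.26 with miR-457a.

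**Figure D5:**
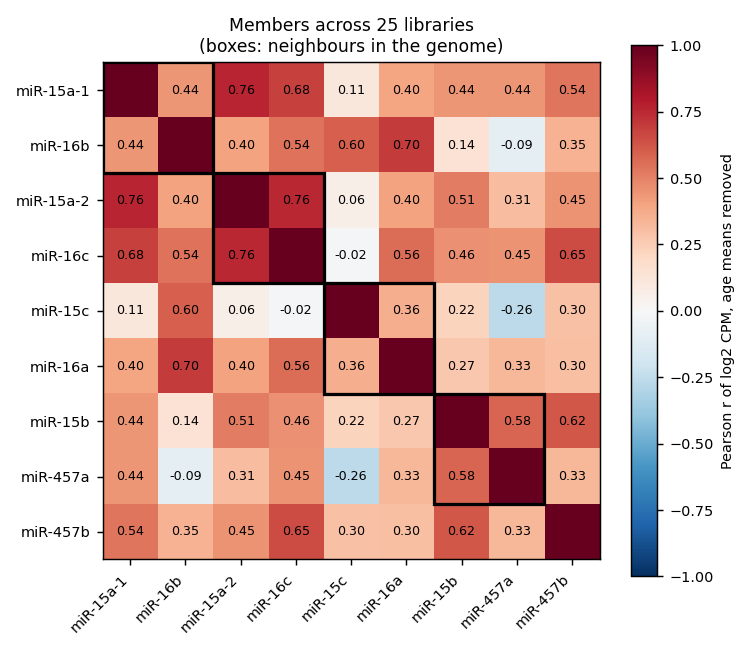
Pearson r of log2 CPM between members over 25 libraries after each age's mean was removed (colour scale from -1 to 1, value in each cell), with neighbours in the genome side by side and boxed. The boxed pairs run from 0.36 (miR-15c and miR-16a) to 0.76 (miR-15a-2 and miR-16c), and cells outside the boxes run from -0.26 to 0.76.

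Outside the members, the microRNA names with the most similar profile were sought among 182 names with copies summed, by Pearson r over the 25 libraries, as a description. For the miR-16 sum they were miR-200c (r = 0.752), let-7b (0.743) and miR-200b (0.712), of which the miR-200 microRNAs are known from epithelia. With age means removed these values were 0.751, 0.458 and 0.617. For the miR-15 sum they were miR-731 (0.682), miR-429a (0.637) and miR-142b (0.621), which were 0.305, 0.551 and 0.487 with age means removed. For the miR-457 sum they were miR-142b (0.745), let-7h (0.725) and let-7f (0.675), which were 0.742, 0.672 and 0.564 with age means removed. MiR-142b is among the 4 leukocyte hairpins above, and miR-429a among the 9 epidermal ones. The median r of all 182 names with the 3 sums was between 0.02 and 0.10.

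The relatives miR-103 and miR-107, whose seed overlaps that of the members with a shift, were lower at the later ages. All 3 tested hairpins of this group were lower at 24 than at 6 months (16.3% of all hairpins were), with a median change of -0.71. All 3 were also lower at 42 than at 6 months (12.4% of all hairpins; median change -0.77) and in the trend (25.2% of all hairpins in either direction; median slope -0.33). From 6 to 42 months, miR-107a was at 976 ± 139.6, 767 ± 179, 596 ± 85.4, 356 ± 99.2 and 573 ± 140.04 CPM (SD, n = 5 each), and miR-103 at 397 ± 31.8, 299 ± 17.2, 281 ± 23.7, 256 ± 29.9 and 278 ± 38.8 CPM. MiR-107b was at 116.6 ± 25.8, 91.3 ± 23.8, 64.4 ± 19.1, 30.5 ± 12.4 and 56.4 ± 14.8 CPM at the same ages. At 42 against 24 months their median change was -0.06, where that of the members was 0.36. The difference between the groups was not tested.

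A wider list of microRNAs linked to the cell cycle (let-7, miR-17 to miR-20, miR-24 to miR-26, miR-34, miR-92, miR-93, miR-106, miR-221, miR-222 and miR-449) had 47 tested hairpins, several of them copies. At 24 against 6 months 6 were lower and 0 higher, which is a smaller share than the 16.3% of all hairpins called lower, with a median change of -0.23 where that of all hairpins was 0.05. At 42 against 6 months 2 were higher and 1 lower, with a median near 0 (0.00028). Of all 258 hairpins, 30 were higher and 32 (12.4%) lower in that comparison. In the trend 5 rose and 2 fell, where 25.2% of all hairpins passed in either direction, with a median slope of -0.01. Those of smallest p were miR-34a, which responds to p53 (slope 0.59 ± 0.12 log2 per 12 months, SE, edgeR adjusted p = 4.8e-04), miR-222b, a microRNA that targets the cell cycle inhibitor p27 in human cells (0.35 ± 0.08, 0.00199), miR-24-5 (0.20 ± 0.06, 0.0281) and miR-93 (-0.14 ± 0.05, 0.0402). Transgene also differs between ages, so an effect of age on these slopes cannot be told apart from it. At 24 against 6 months, with the same strain label, the miR-222b change was negative (-0.51, edgeR adjusted p = 0.0551) and not called. MiR-34a (0.25, 0.722) and miR-24-5 (0.41, 0.0948) were not called either, and miR-93 was called lower (-0.67, 0.00146).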

How the data were processed

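Small-RNA libraries of 25 zebrafish skin samples came as 1 table in which the authors gave unnormalized counts for each hairpin, checked here on the values (whole numbers, unequal totals). The tools named, per the submitters' processing notes, are SAMtools 1.3.1-9, BWA 0.7.12-r1039, Trimmomatic 0.36 and CASAVA 1.8.4, in no stated order. The hairpin reference, and the rule for reads matching several hairpins, were not given in the sources used here. Libraries were grouped by the age label, with replicates numbered in the order of the records.

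The tests ran in edgeR 4.0.16 under R 4.3.3: TMM factors, filterByExpr by age (minimum count 10; 258 hairpins kept, all 9 members among them), quasi-likelihood F tests on all 25 libraries, and Benjamini-Hochberg adjustment over all hairpins tested. Each SE is the log2 change over the square root of F, and the 95% intervals use it with a normal quantile. Counts were also summed by number and by name (190 tested). Ratios (0.5 added to counts) and correlations (log2 of CPM plus 1) used SciPy 1.17.1 and NumPy 2.4.6. Alternatives were other scalings, no filter, DESeq2 1.42.0, limma-voom (3.58.1), copies summed, fewer samples, a transgene term and age as rank. The fits were tested on simulated data. All members and relatives were named, with the 3 closest names per sum and the 4 of smallest trend p in the cell cycle list. Members and lists were chosen with earlier results of these data known. Mature sequences were not analysed here.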

Additional observations from a re-analysis of the deposited data

Results flagged for a closer look

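In 60 groups of 5 libraries (9 members and 3 sums at 5 ages), 3 held a library whose gap to its nearest neighbour exceeded Dixon's critical value, where chance gives about 1 in 20, which is also 3 of 60. MiR-15a-1 was at 118 CPM in 24 months replicate 5, where the other 24-month libraries lay between 149 and 153.5 CPM. MiR-15c was at 365 CPM in 42 months replicate 1, and at 132 to 194 CPM in the other libraries of that age. MiR-457b was at 82.7 CPM in 36 months replicate 5, and at 49.3 to 58.6 CPM in the other libraries of that age.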

How the results depend on the processing

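At 24 against 6 months, miR-16c and miR-15a-2 passed in each alternative, and upper-quartile scaling left 4 of 9 members called lower (25 of all 258 hairpins). Copies summed left 4 of 8 names, since the miR-15a copies became 1 name, still called, and miR-16a and miR-16b lost their calls. Over all names, 23 of 190 were lower. Upper-quartile scaling moved the median change of all sums by number by 0.31. Under it 2 members passed for any difference and 3 in the trend, where 83 and 64 of all 258 hairpins did. Under this scaling the miR-15 sum missed the test among ages (adjusted p = 0.388), and the slope of miR-15c was -0.027. The changes of the miR-15, miR-16 and miR-457 sums at 24 against 6 months were -0.20, -0.21 and -0.21 and not called. With library size alone 2 members passed in the trend, where 71 of all 258 hairpins did. In that setting the miR-15 sum missed the test among ages (adjusted p = 0.201), and the miR-457 sum missed that at 24 against 6 months (-0.41). With copies summed there were 6 member calls over the 10 pairs, against 10. Without the 42-month group 1 member passed in the trend (66 of 260 hairpins did), and the slope of miR-15c was -0.12. Slopes near 0 changed sign: miR-15b and miR-16a with DESeq2 size factors (0.0073 and 0.012) or DESeq2 (0.0075 and 0.011), miR-15b, miR-16a and miR-457a with copies summed (0.030, 0.037 and 0.00036), and the miR-15 sum with DESeq2 size factors (0.0055).

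Without each library in turn, 5 to 7 members were lower at 24 than at 6 months, 2 to 7 passed for any difference, 0 to 1 in the trend (1 without 42 months replicate 1 or 42 months replicate 3), and 6 to 13 calls were made over the pairs (6 without 6 months replicate 5). The same fits called 23 to 51 of all hairpins lower at 24 than at 6 months. Over all hairpins 77 to 111 passed for any difference and 42 to 69 in the trend. The slopes ran from -0.036 to 0.021 for miR-15b, -0.054 to 0.067 for miR-15c, -0.030 to 0.023 for miR-16a and -0.061 to 0.019 for the miR-15 sum. The change at 24 against 6 months ran from -0.58 to -0.34 for the miR-15 sum and from -0.62 to -0.38 for the miR-457 sum, and the adjusted p among ages from 0.011 to 0.129 for the miR-15 sum and from 0.0051 to 0.092 for the miR-16 sum. The cause was not tested. No paired analysis was possible because the labels give no shared replicate numbers. Depth limits miR-457b most, with 25 counts in 42 months replicate 2.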

Other observations

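Single libraries stood high or low for most members at once. In 42 months replicate 1, 8 of the 9 members had the highest CPM of their age (miR-15a-2 was the exception). This library had the lowest TMM factor of the 25 (0.829), which raises its CPM. As a share of unscaled counts, the members took 0.432% there and 0.489% in 42 months replicate 4. In 36 months replicate 5 also 8 of 9 had the highest CPM of their age (miR-15c was the exception). In 24 months replicate 5, 6 of 9 members were the lowest of their age and miR-15c was the highest. The members' total ran from 3583 to 5214 CPM at 42 months, where the range at 24 months was 3056 to 3526 CPM and that at 6 months 4326 to 5146 CPM.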
